A study of Mus musculus with 2 samples.

Results

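Basement membrane genes were followed across the cell classes of mouse vein grafts. The set held 10 genes, taken by symbol from the 32285 gene rows of the count matrices: the collagen chains Col4a1, Col4a2, Col4a5, Col15a1 and Col18a1, the laminin chains Lama4, Lamb1 and Lamc1, the linker Nid1 and the proteoglycan gene Hspg2. Each symbol matched 1 row. The series holds 2 single-cell RNA libraries from C57BL6/J mice aged 10 to 12 weeks, 1 of conventional vein grafts and 1 of No-Touch vein grafts, an operation in which the vein is moved with the tissue that surrounds it. In both, grafts were taken apart with papain, then with papain, collagenase and dispase together, and living nucleated cells that lacked CD45 on their surface, the common antigen of leukocytes, were sorted for droplet capture. The number of animals and grafts behind a library and the time after grafting are not given in the sources used here, and the labels name the 10x 3' kit as v2 or v3 without saying which library had which. Each group is a single library, which allows no test: every difference below is between these libraries, has no replicate check and carries an interval for counting error only.

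A basement membrane is a thin sheet of matrix on which endothelium rests and which wraps each smooth muscle cell, pericyte and Schwann cell. Laminins, heterotrimers of an alpha, a beta and a gamma chain, bind cell surface receptors and polymerise first, a network of type IV collagen is laid beside them, and nidogen and perlecan tie the layers together. Collagens XV and XVIII sit at the face of the sheet towards the interstitial matrix. Vein grafts are exposed to arterial pressure, and their wall gains cells and matrix afterwards.

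The Col4a1 and Col4a2 promoters are shown first because these genes had the most similar levels of any pair here, described below, and because they lie head to head. In the GENCODE vM21 annotation of mm10, Col4a1 occupies chromosome 8, 11198423 to 11312826 on the minus strand, and Col4a2 chromosome 8, 11312805 to 11449287 on the plus strand, an overlap of 22 bases at their starts. The RefSeq windows from 250 bases before to 50 bases after each start (build GRCm38.p6) share 78 bases, chr8:11312777-11312854, which are in capitals below on each gene's own strand.
Col4a1 promoter, chr8:11312777-11313076, minus strand: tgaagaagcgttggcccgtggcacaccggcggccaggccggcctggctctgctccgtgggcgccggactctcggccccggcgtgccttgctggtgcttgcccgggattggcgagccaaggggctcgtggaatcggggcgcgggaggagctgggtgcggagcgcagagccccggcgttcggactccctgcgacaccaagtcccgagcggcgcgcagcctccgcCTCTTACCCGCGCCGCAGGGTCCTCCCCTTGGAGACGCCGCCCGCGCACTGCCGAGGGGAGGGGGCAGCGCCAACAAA
Col4a2 promoter, chr8:11312555-11312854, plus strand: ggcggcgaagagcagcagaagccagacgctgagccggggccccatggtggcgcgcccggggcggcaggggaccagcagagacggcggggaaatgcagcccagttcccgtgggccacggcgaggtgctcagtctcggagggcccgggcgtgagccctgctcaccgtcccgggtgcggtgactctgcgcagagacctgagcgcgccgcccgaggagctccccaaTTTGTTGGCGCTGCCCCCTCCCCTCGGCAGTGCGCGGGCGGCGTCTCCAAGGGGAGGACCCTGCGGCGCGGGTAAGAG
The same 78 bases thus appear in opposite orientation in both windows. G and C made up 74.0% of the Col4a1 and 73.7% of the Col4a2 window, against a median of 52.7% over all windows of this length. RefSeq windows were found for 8 of the 10 genes (9 windows, since Col18a1 has a pair of them), and Lama4 and Lamc1 had none in the table. The GC box GGGCGG, searched on both strands, was in 7 of these 9 windows and in 35.7% of all 32851 windows. CCAAT was in 6 and in 37.4% of all, and TATAAA in 0 and in 13.6% of all. None of these motifs contains another, and 1 GC box lay in the bases shared by Col4a1 and Col4a2. A match describes letters only.

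Cells were assigned to classes by marker genes that do not include the 10 genes. The kept cells numbered 9583 (conventional) and 10462 (No-Touch), with a median of 16282 and 27457.5 UMIs (unique molecular identifiers, counts of captured RNA molecules). Fibroblast-like cells numbered 5968 and 8163, smooth muscle-like cells 258 and 311, and pericyte-like cells 635 and 237. Blood endothelial-like cells numbered 806 and 390, lymphatic endothelial-like cells 311 and 285, and Schwann-like cells 176 and 292. Neutrophil-like cells (376 and 79), which passed the CD45 sort, served as the measure of free RNA, since leukocytes of this kind lack a basement membrane. The classes are cuts on a score rather than fixed types, 335 assigned cells lay within 0.05 of the cut, and 220 cells between smooth muscle and pericyte stayed unassigned. Levels are UMIs summed over a class per 1000000 UMIs of that class and library (CPM), with exact Poisson 95% intervals in parentheses. The kits count molecule ends and not length, so levels are compared between classes and libraries for a gene, and between genes only as ratios that are then followed across classes.

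**Figure D1:**
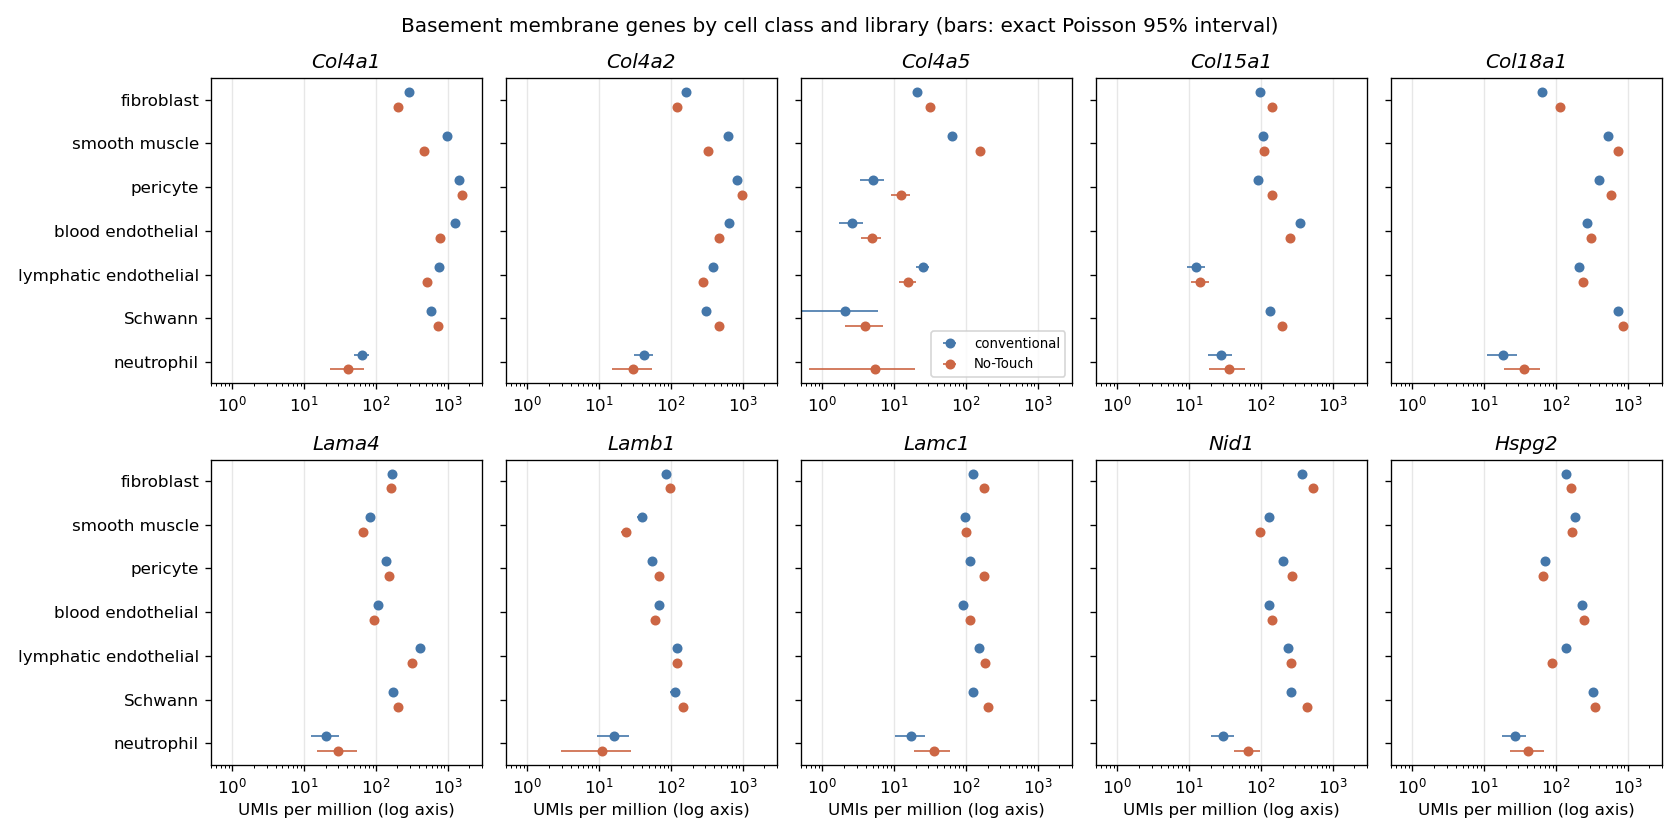
Level of each basement membrane gene in CPM (log axis) in 6 cell classes and in neutrophil-like cells, with blue points for the conventional and red points for the No-Touch library and bars for exact Poisson 95% intervals (Col4a5 at 0 in conventional neutrophil-like cells is not drawn). Col4a1 and Col4a2 peaked in pericyte-like cells, Col4a5 in smooth muscle-like cells and Nid1 in fibroblast-like cells in both libraries, and the lymphatic level of Col15a1 lay below that of neutrophils.

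The order of classes differed between most of the genes, and for 8 of the 10 the class with the highest level was the same in both libraries. Pericyte-like cells led for Col4a1 and Col4a2, smooth muscle-like cells for Col4a5, blood endothelial-like cells for Col15a1, Schwann-like cells for Col18a1 and Hspg2, lymphatic endothelial-like cells for Lama4 and fibroblast-like cells for Nid1. For Lamb1 and Lamc1 the lymphatic class led in the conventional library and the Schwann-like class in the other, and the intervals of those classes overlapped each time. In neutrophil-like cells the 10 genes lay between 0 and 65.6 CPM, and each gene is read against its own level there: a level at or below it is not taken as expression.

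Differences between the libraries went in both directions, and several of the counts below were near the share of all genes. A gene was compared in a class when it reached 10 CPM in either library, and called higher or lower when No-Touch and conventional levels (CPM + 1) were at least 1.5 times apart. In smooth muscle-like cells 3 of 10 were lower in the No-Touch library (Col4a1, Col4a2 and Lamb1), against 9.02% of all genes, and 1 (Col4a5) was higher, against 14.2% of all genes. In pericyte-like cells 4 of 10 were higher (Col4a5, Col15a1, Col18a1 and Lamc1), against 10.6% of all genes, and 0 were lower, against 4.54%. In Schwann-like cells 3 of 9 were higher (Col4a2, Lamc1 and Nid1), against 13.3% of all genes, and 0 were lower, against 8.04%. In blood endothelial-like cells 1 of 9 (Col4a1) was lower, against 6.49% of all genes, and 0 were higher, against 12.6%. In lymphatic endothelial-like cells 2 of 10 (Col4a5 and Hspg2) were lower, against 6.85%, and 0 were higher, against 9.46%. In fibroblast-like cells 1 of 10 (Col18a1) was higher, against 7.35%, and 0 were lower, against 3.35%.

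On the log2 scale (No-Touch over conventional), the median over the genes compared was 0.37 in fibroblast-like, 0.38 in pericyte-like and 0.39 in Schwann-like cells. It was -0.24 in smooth muscle-like, -0.19 in blood endothelial-like and -0.18 in lymphatic endothelial-like cells. The same median over all genes lay between 0.00 and 0.10 in the 6 classes. The pericyte-like count depends on scaling: with TMM or median-of-ratios factors, which move the median of all genes in that class from 0.096 to -0.023 and -0.025, 1 gene was higher in place of 4. The blood endothelial-like median depends on how cells are weighted, and was 0.02 with each cell thinned to 3000 UMIs and 0.07 as a mean over cells, where Col4a1 also missed the limit at -0.58. With no doublets removed 0 genes were lower in lymphatic endothelial-like cells, and with cluster 13, described below, left out 4 were higher in fibroblast-like cells. Leaving that cluster out also reversed Col4a5 in fibroblast-like cells, from a log2 ratio of 0.57 to -0.17.

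**Figure D2:**
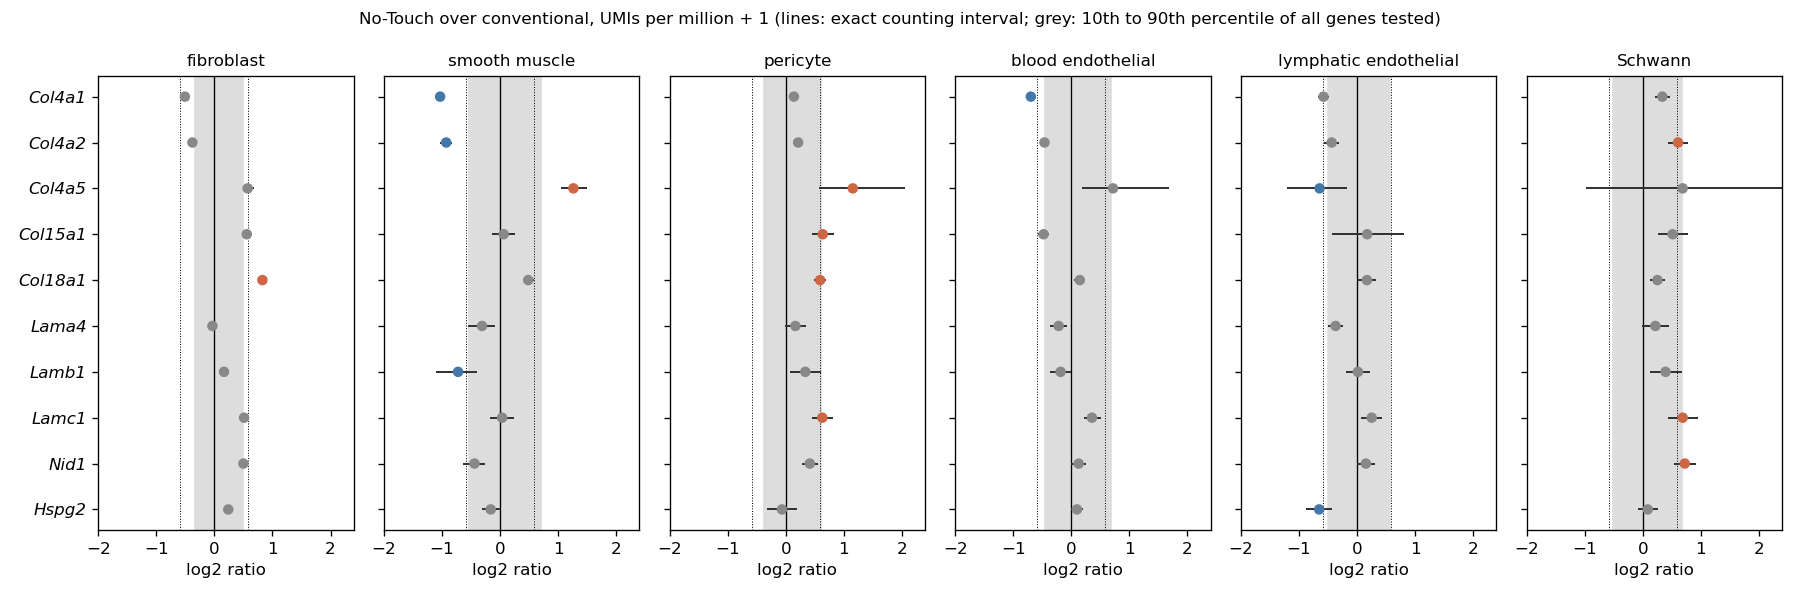
Log2 ratio of No-Touch over conventional levels (CPM + 1) for each gene in 6 cell classes, with exact counting intervals as lines, the 1.5-fold limits dotted and the 10th to 90th percentile of all genes compared in grey; red points are genes called higher, blue points genes called lower. Col4a1 and Col4a2 lie left of 0 in fibroblast-like, smooth muscle-like and both endothelial classes and right of 0 in pericyte-like and Schwann-like cells.

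Col4a1 and Col4a2 encode the alpha1 and alpha2 chains, which form the type IV collagen found in nearly all basement membranes. Col4a1 stood at 1456 CPM (1425 to 1487) in conventional and at 1605 CPM (1563 to 1648) in No-Touch pericyte-like cells, and values below keep this order of libraries. In blood endothelial-like cells it was at 1252 (1232 to 1273) and 771 CPM (752 to 789), and in smooth muscle-like cells at 973 (942 to 1004) and 475 CPM (458 to 492). The pericyte-like level was thus 1.16 times the blood endothelial-like level among conventional and 2.08 times among No-Touch cells. Lymphatic endothelial-like cells held 766 and 513 CPM, Schwann-like cells 577 and 730 CPM and fibroblast-like cells 293 and 206 CPM. Fibroblasts were lowest of the 6 classes in both libraries, and still well above the 63.9 and 41.0 CPM of neutrophil-like cells. The log2 ratio ran from -1.03 in smooth muscle-like cells, a No-Touch level 0.489 times the conventional one (0.465 to 0.513), to 0.34 in Schwann-like cells. It was -0.70 in blood endothelial-like, -0.58 in lymphatic endothelial-like, -0.51 in fibroblast-like and 0.14 in pericyte-like cells.

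Col4a2 followed the same classes. It was at 831 and 963 CPM in pericyte-like, 653 and 473 CPM in blood endothelial-like and 617 (592 to 642) and 324 CPM (309.5 to 338) in smooth muscle-like cells. Lymphatic endothelial-like cells held 384 and 283 CPM, Schwann-like cells 305 (277 to 335) and 466 CPM (442 to 491), and fibroblast-like cells 159.9 and 123 CPM, against 41.9 and 30.1 CPM in neutrophil-like cells. Its log2 ratio was -0.93 in smooth muscle-like and 0.61 in Schwann-like cells, and each class had the sign that Col4a1 had there. The UMIs of Col4a1 over those of Col4a2 lay between 1.47 and 1.99 in all 12 class and library sums, a range of 1.36 times. The ratio was lower in the No-Touch library in 6 of 6 classes, with intervals apart in 3 of them. Over 48 sums of 1 cluster in 1 library, Pearson's r of the log2 levels of Col4a1 and Col4a2 was 0.992, the highest among all pairs of the 10 genes. These points share their libraries and depth and include clusters near the level of free RNA, which can raise r. The value is a description.

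Among genes outside the lists described here, those whose log2 levels were among the most like Col4a1 over the 14 class and library sums included Birc6 (r = 0.98), Dab2ip (0.97), Akap11 (0.97), Eif5b (0.96), Ddx24 (0.96), Ncl (0.96) and Rrp1 (0.95). Col4a2, with r = 0.996, ranked above all of them among the 6188 genes of at least 50 CPM in any sum. Of the remaining 8 genes of the set Col18a1 came nearest, with r = 0.83 and rank 534. The 14 sums include those of neutrophil-like cells, where Col4a1 was at 63.9 and 41.0 CPM. A gene can thus rank high by being low in neutrophil-like cells, and the ranking without them was not made.

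Col4a5 encodes the alpha5 chain, which assembles with alpha6 in the basement membrane of smooth muscle, and lies on chromosome X, 141475385 to 141689234 on the plus strand. Its level in smooth muscle-like cells was 64.0 CPM (56.3 to 72.5), against 155 CPM (145 to 165) with No-Touch, a log2 ratio of 1.26. Both levels stood above every other class, by 2.56 and 4.94 times over the next. Fibroblast-like cells held 20.8 (20.02 to 21.6) and 31.4 CPM (30.7 to 32.1), a log2 ratio of 0.57 that was -0.17 with cluster 13 left out. Pericyte-like cells held 5.0 (3.37 to 7.14) and 12.4 CPM (8.91 to 16.7). The pericyte-like values rest on 30 and 42 UMIs, and both intervals overlap those of neutrophil-like cells (0 to 3.52 and 0.662 to 19.7). Lymphatic endothelial-like cells went the other way, with 25.0 (20.2 to 30.6) and 15.6 CPM (11.8 to 20.3), the latter interval also overlapping that of No-Touch neutrophil-like cells. Schwann-like cells, with 3 and 12 UMIs, and blood endothelial-like cells, with 29 and 42, were below 10 CPM in both libraries and were not compared. Col4a6, for the alpha6 partner chain, starts 1308 bases from Col4a5 on the opposite strand (chromosome X, 141165403 to 141474076) and was at 17.0 and 70.1 CPM in smooth muscle-like cells, a log2 ratio of 1.98. Smooth muscle-like cells thus had less Col4a1 and more Col4a5 in the No-Touch library, and the UMIs of Col4a5 per UMI of Col4a1 were 0.0658 (0.0576 to 0.0748) and 0.326 (0.303 to 0.352).

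Col15a1 and Col18a1 encode multiplexins, collagens with interrupted helices that carry sugar chains and whose C-terminal ends can be released, endostatin in the case of Col18a1. Col15a1 (chromosome 4, 47208161 to 47313167, plus strand) was at 354 (343 to 365) and 253 CPM (243 to 264) in blood endothelial-like cells, its highest class. Schwann-like cells followed with 135 and 193 CPM, and fibroblast-like, smooth muscle-like and pericyte-like cells lay between 91.8 and 143 CPM. Lymphatic endothelial-like cells, at 12.5 (9.19 to 16.6) and 14.2 CPM (10.6 to 18.7), lay below the 27.6 and 35.5 CPM of neutrophil-like cells, so no expression is read there. The log2 ratio was 0.64 in pericyte-like, 0.56 in fibroblast-like and 0.52 in Schwann-like cells, and -0.48 in blood endothelial-like cells. Of the pericyte-like clusters, cluster 8 had 0.60 and cluster 7 had -0.62, the latter on 44 and 35 UMIs.

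Col18a1 (chromosome 10, 77052178 to 77166548, minus strand) was at 722 (679 to 767) and 861 CPM (828 to 894) in Schwann-like cells and at 526 (503 to 549) and 736 CPM (715 to 758) in smooth muscle-like cells. Pericyte-like cells held 392 and 592 CPM, blood endothelial-like cells 274 and 303 CPM, lymphatic endothelial-like cells 212 and 238 CPM, and fibroblast-like cells 63.4 (62.0 to 64.7) and 113 CPM (112 to 114). This order of the 6 classes was the same in both libraries, with no neighbouring intervals overlapping. Col18a1 and Lamc1 were the only genes of the set with a log2 ratio above 0 in all 6 classes. For Lamc1 this includes 0.03 in smooth muscle-like cells, a value that kept its sign in 9 of 14 alternatives, described below. For Col18a1 the log2 ratio ran from 0.15 in blood endothelial-like to 0.83 in fibroblast-like cells. The 0.15 did not hold within cluster 17 of the blood endothelial-like cells, described below, where Col18a1 was at -0.11. A direction common to all classes is thus not read for either gene. Called values of Col18a1 were 0.83 in fibroblast-like cells and 0.59 in pericyte-like cells, the latter close to the limit. In smooth muscle-like cells, where Col4a1 and Col4a2 were lower, Col18a1 had a log2 ratio of 0.48, though the clusters of that class, described below, differed in direction.

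Of the laminin chains, Lama4 was called in 0 of 6 classes. Lama4, the alpha chain of laminins in vessels, (chromosome 10, 38965515 to 39110188, plus strand) was at 409 (389 to 430.1) and 316 CPM (298 to 335) in lymphatic endothelial-like cells, 2.35 and 1.56 times the next class. Schwann-like cells held 174 and 203 CPM and fibroblast-like cells 169 and 165 CPM. Smooth muscle-like cells were lowest of the 6, at 83.3 and 67.0 CPM, with blood endothelial-like cells next at 108 and 93.0 CPM. Its log2 ratio lay between -0.37 and 0.22 in the 6 classes.

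Lamb1, a beta chain, (chromosome 12, 31265234 to 31329644, plus strand) was at 122 and 123 CPM in lymphatic endothelial-like, 112 and 148 CPM in Schwann-like and 86.4 and 96.9 CPM in fibroblast-like cells. Smooth muscle-like cells were lowest, at 39.7 (33.7 to 46.5) and 23.7 CPM (19.9 to 27.9), a log2 ratio of -0.72 that rests on 154 and 143 UMIs. The No-Touch level there was close to the 16.2 and 10.9 CPM of neutrophil-like cells, whose No-Touch interval (2.98 to 27.98) covers it. Lamc1, the gamma chain shared by most laminins, (chromosome 1, 153218922 to 153332786, minus strand) spanned only 89.98 to 205 CPM over all 12 sums. It was at 116 (107 to 125) and 179 CPM (166 to 194) in pericyte-like and at 127 (109 to 146) and 205 CPM (189 to 222) in Schwann-like cells, log2 ratios of 0.63 and 0.69. In fibroblast-like cells it was at 125 and 178 CPM, a log2 ratio of 0.51.

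Relative to Lamc1, both other laminin chains had fewer UMIs in the No-Touch library in 6 of 6 classes. Both ratios have Lamc1 as denominator, so they are not separate results. The log2 ratio of Lamc1 itself was above 0 in all 6 classes, though only 0.03 in smooth muscle-like cells. Lama4 over Lamc1 ranged from 0.848 to 2.66 among conventional and from 0.665 to 1.72 among No-Touch sums, with intervals apart in 5 classes. Lamb1 over Lamc1 ranged from 0.404 to 0.886 and from 0.235 to 0.721, with intervals apart in 3 classes. Such counts of classes were not made over other gene pairs, so neither these nor that for Col4a1 and Col4a2 are read as particular. The lymphatic endothelial-like ratio of Lama4 to Lamc1 was the highest in both libraries, and the smooth muscle-like ratios were the lowest for both pairs.

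Nid1 encodes nidogen-1, which binds the laminin gamma1 chain and type IV collagen (chromosome 13, 13437551 to 13512269, plus strand). It was highest in fibroblast-like cells, at 376 (373 to 379.5) and 532 CPM (529 to 535), with Schwann-like cells next at 264 (239 to 292) and 438 CPM (414 to 462). Lymphatic endothelial-like and pericyte-like cells lay between 200.1 and 267 CPM, blood endothelial-like cells at 130.5 and 142 CPM and smooth muscle-like cells at 131 and 95.9 CPM. The log2 ratio was 0.72 in Schwann-like, 0.50 in fibroblast-like and -0.44 in smooth muscle-like cells. Fibroblast markers, 6 of 6 detected, summed to 628 and 1082 CPM in Schwann-like cells, 4.30% and 7.02% of the fibroblast-like sums, and their part in the Schwann-like Nid1 levels was not tested. Neutrophil-like cells were at 29.6 and 65.6 CPM. Their No-Touch interval (42.0 to 97.6) overlaps that of No-Touch smooth muscle-like cells (88.3 to 104).

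Hspg2 encodes perlecan, the heparan sulfate proteoglycan of basement membranes (chromosome 4, 137468769 to 137570630, plus strand). Schwann-like cells led with 328 (299 to 359) and 348 CPM (327 to 369.7), followed by blood endothelial-like cells with 231 and 247 CPM and smooth muscle-like cells with 186 and 166 CPM. Pericyte-like cells were lowest, at 69.3 and 66.2 CPM, although they led for Col4a1. Neutrophil-like cells were at 26.7 and 41.0 CPM, and their No-Touch interval (22.9 to 67.6) overlaps that of pericyte-like cells (57.9 to 75.5). In lymphatic endothelial-like cells Hspg2 was at 139.7 (128 to 152) and 88.5 CPM (79.0 to 98.8), a log2 ratio of -0.65, and in the other 5 classes its log2 ratio lay between -0.16 and 0.24. The 0.24 was that of fibroblast-like cells, and did not hold within their clusters, described below. There Hspg2 was above 0 in 3 of 11, with a median of -0.32, and at -0.15 with clusters weighted equally. Blood endothelial-like cells had 0.10 as a class and -0.36 within cluster 17.

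Several class values hide differences between clusters, which were made without the basement membrane genes. Fibroblast-like cells fell into 11 clusters with at least 50 such cells in both libraries, holding 86.7% and 97.1% of these cells, but largely different clusters in each. In the conventional library 28.3% were in cluster 1 (led by Mfap4 and Fmo2) and 28.8% in cluster 2 (Cxcl13, Saa3), and in the No-Touch library 26.1% in cluster 13 (Sfrp4, Fmo2) and 22.9% in cluster 15 (Sema3c, Sbsn). Within clusters Col4a1 was below its conventional level in 10 of 11, with log2 ratios from -0.87 to 0.11 and a median of -0.60. Nid1 was above it in 9 of 11 (-0.49 to 0.56, median 0.26), Col4a5 in 9 of 11 (-0.72 to 2.00, median 0.80) and Lamc1 in 10 of 11 (-0.06 to 0.71, median 0.15). Col18a1, the called gene of the whole class at 0.83, was above 0 in 7 of 11 clusters, with a median of 0.18, and had a log2 ratio of 0.38 when the clusters were weighted equally. Col15a1, at 0.56 in the whole class, was at 0.00 with equal weights.

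**Figure D3:**
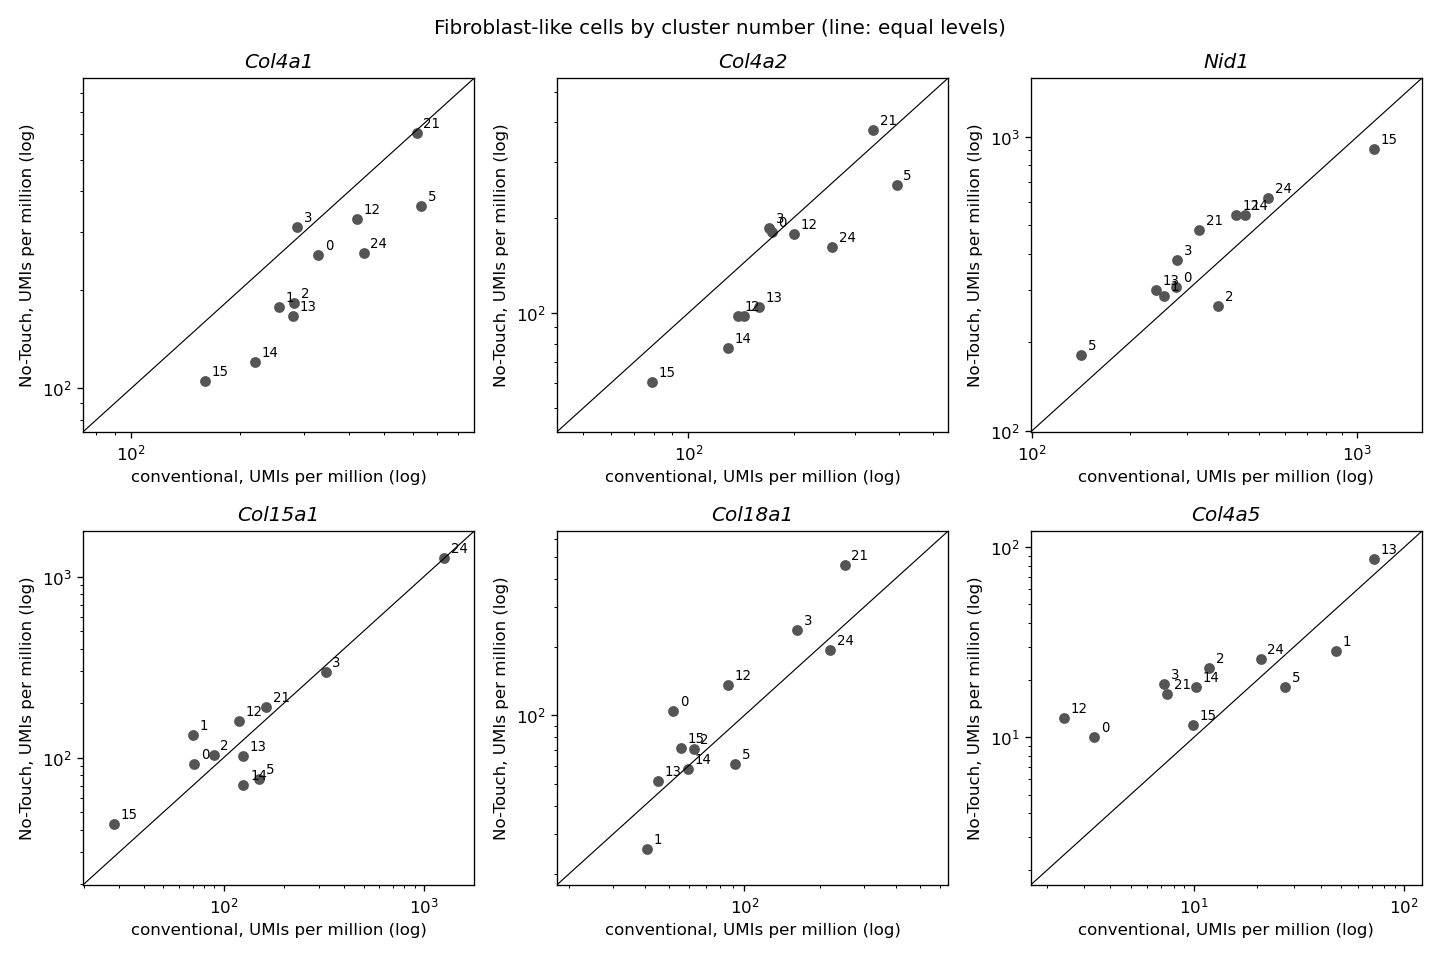
Level in fibroblast-like cells of 6 basement membrane genes by cluster number, with the conventional library on the x axis and the No-Touch library on the y axis (CPM, log axes, 11 clusters with at least 50 cells in both) and a line of equal levels. Col4a1 lies below the line in 10 of 11 clusters, Col15a1 of cluster 24 stands apart at 1268 and 1270 CPM, and Nid1 is highest in cluster 15.

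Within fibroblast-like cells the genes marked different clusters in both libraries, and highest and lowest here are among the 11 clusters with at least 50 such cells in both. Col15a1 reached 1268 and 1270 CPM in cluster 24 (led by Apod and Angptl7), more than in any endothelial cluster of at least 50 cells in a library. Its cluster medians were 125 and 104 CPM, and its lowest level was 28.5 and 43.1 CPM in cluster 15. Nid1 was highest in cluster 15, at 1128 and 905 CPM, and reached 800.2 CPM over all cells of cluster 4 (led by Dmkn, with Pi16 among its leading genes). That cluster, with 722 conventional and 27 No-Touch cells, is outside the 11, and in the conventional library it lay below cluster 15 for Col15a1 (21.1 CPM), Col4a1 (126 CPM) and Col4a2 (64.0 CPM). Cluster 15 was lowest for Col4a1 (159.6 and 105 CPM) and Col4a2 (78.9 and 60.3 CPM), and highest for Lama4 (344 and 239.8 CPM). Col4a1 peaked at 633 CPM in cluster 5 (Mmp13, Spp1) of the conventional library and at 602 CPM in cluster 21 (Sfrp5, Cldn1) of the No-Touch library. Cluster 21 also had the most Col18a1, at 251 and 461 CPM, and cluster 13 the most Col4a5, at 72.0 and 86.5 CPM.

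The mural classes differed in makeup between the libraries. Of smooth muscle-like cells 41.5% of the conventional library were in cluster 8 (led by Rgs5, where most pericyte-like cells also were) and 32.2% in cluster 6 (Acta2, Myh11). In the No-Touch library these shares were 12.5% and 61.7%. Within clusters 6 and 7, the ones with at least 50 such cells in both libraries, Col4a1 had log2 ratios of -1.34 and -1.05, Col4a2 -1.34 and -0.59, and Col4a5 0.90 and 0.76, so their directions held in both. Col18a1 went opposite ways, with 0.58 in cluster 6 and -0.78 in cluster 7 (551 and 475 UMIs). Lamb1 was at -1.47 in cluster 6 and had 3 and 4 UMIs in cluster 7. Smooth muscle-like cells also carried fibroblast markers, 6 of 6 detected and summing to 2779.9 and 2394 CPM, 19.0% and 15.5% of the fibroblast-like sums. Pericyte markers, also 6 of 6 detected, summed to 2313 and 1600.0 CPM there, 30.1% and 15.8% of the pericyte-like sums, and so were lower in the No-Touch library together with Col4a1 and Col4a2, the genes highest in pericyte-like cells. The part of either marker list in these values was not tested. For pericyte-like cells the direction of Col4a1 depends on the gate. Over all cells of cluster 8 it was at 1303 (1279 to 1328) and 1089 CPM (1059.7 to 1119), lower in the No-Touch library. Over smooth muscle-like cells, pericyte-like cells and the 220 between them, 1047 and 614 cells in all, Col4a1 had a log2 ratio of -0.52, Col4a2 of -0.41, Col4a5 of 1.85 and Col18a1 of 0.58.

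In blood endothelium, cluster 16 (led by Cd93, with Fabp4 and Gpihbp1 among its leading genes) of the conventional library held the highest levels of Col4a1 and Col4a2 of all clusters with at least 50 cells in a library, 2267 CPM (2208 to 2327) and 1215 CPM. Its 48 No-Touch cells were under that limit, and their level was not measured. Cluster 17 (Selp, Sele) held 994 and 655 CPM of Col4a1 in the conventional and No-Touch libraries. It made up 78.7% and 66.7% of the class, and its own log2 ratio of Col4a1 was -0.60, close to the -0.70 of the class. Col15a1, by contrast, was at 336 and 347 CPM in cluster 17, and 449 CPM in cluster 16, while cluster 25 (led by Cytl1) held 12.1 CPM (7.84 to 17.9). Cluster 25 made up 17.9% of the No-Touch class and had 5 conventional cells, and cluster 16 made up 20.2% and 12.3% of the class. The log2 ratio of Col15a1, -0.48 in the whole class, was 0.05 within cluster 17. Among endothelial clusters of at least 50 cells in a library, cluster 25 had the most Hspg2, 443 CPM. Markers of fibroblasts summed to 735 and 1613 CPM in blood endothelial-like cells and those of smooth muscle to 231 and 616 CPM, all 6 of each detected, and their part in the class values was not tested.

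Schwann-like cells were split in a similar way. Cluster 23, with the myelin gene Mbp among its leading genes, held 31.8% of the conventional and 4.45% of the No-Touch class, and cluster 19, with Kcna1 among its leading genes, held 65.3% and 93.8%. Over all cells of the conventional library, Col18a1 was at 899 CPM (845 to 956) in cluster 19 and 55.4 CPM (30.3 to 92.9) in cluster 23. Hspg2 and Lamb1 were the reverse, with 294 and 455 CPM and with 79.9 and 253 CPM. Within cluster 19 the log2 ratio was 0.60 for Nid1, 0.62 for Lamc1, 0.51 for Col4a2, 0.73 for Lamb1 and 0.04 for Col18a1. Of the 3 genes called in the whole class, Col4a2 was thus under the limit within that cluster. Cells of cluster 23 were shallow, with a median of 4224.5 UMIs.

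**Figure D4:**
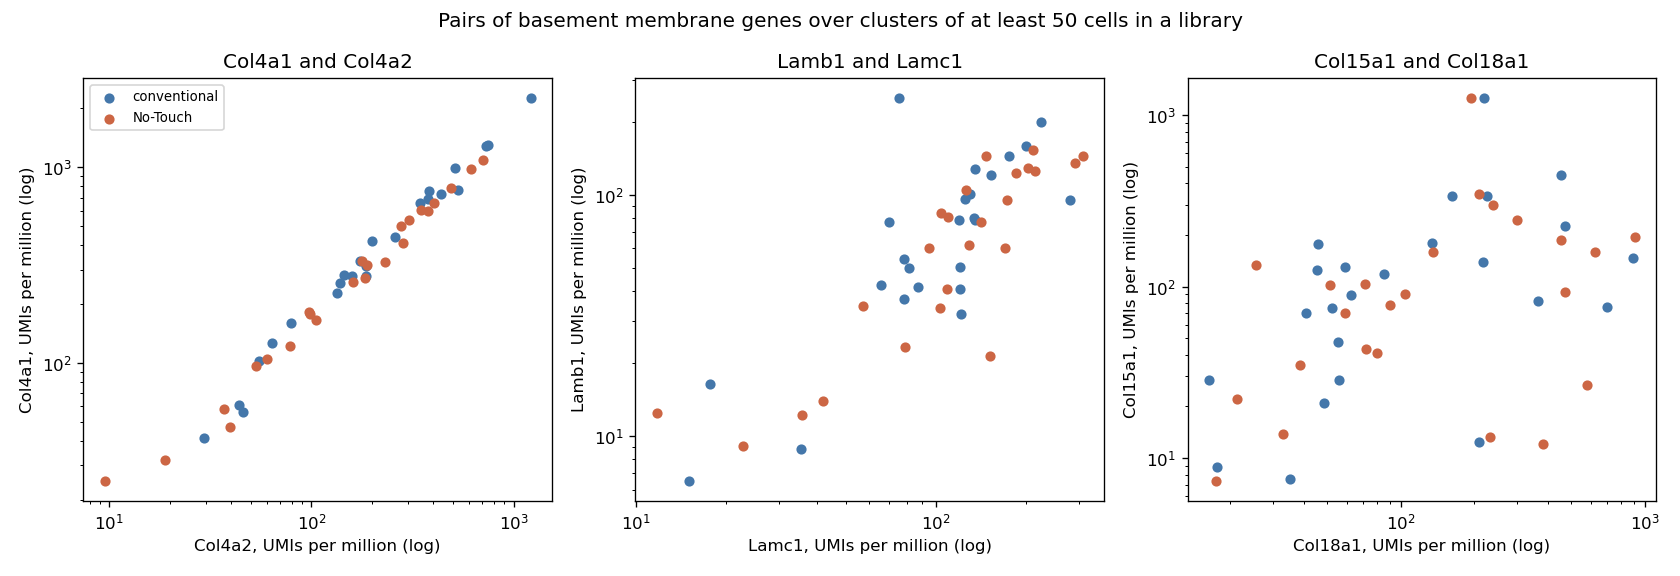
Levels (CPM, log axes) of 3 pairs of basement membrane genes, 1 point for each cluster with at least 50 cells in a library, blue for the conventional and red for the No-Touch library. Col4a1 and Col4a2 lie on a narrow line (Pearson's r of the log2 levels 0.992), Lamb1 and Lamc1 scatter more (0.823), and Col15a1 and Col18a1 most of these (0.457).

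Among the other pairs, the laminin chains and Nid1 had high correlations over the same 48 sums. These sums include clusters near the level of free RNA. In conventional neutrophil-like cluster 9, Lamb1, Lamc1 and Nid1 were at 16.4, 17.6 and 33.3 CPM. Such low points can raise r for any pair, and r without them was not computed. Over the 12 class and library sums the ratio of Lama4 to Lamc1 ranged 3.99 times and that of Lamb1 to Lamc1 3.77 times. Pearson's r was 0.90 for Lama4 and Lamb1, 0.89 for Lama4 and Lamc1, 0.88 for Lamc1 and Nid1 and 0.82 for Lamb1 and Lamc1. Col18a1 was closest to the type IV pair, with 0.85 to Col4a1 and 0.86 to Col4a2, and r was 0.46 for Col15a1 and Col18a1. Col4a5 was near none, with r between -0.03 and 0.30. The UMIs of Col15a1 per UMI of Col18a1 ranged from 0.0590 in lymphatic endothelial-like to 1.51 in fibroblast-like cells of the conventional library.

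Shares of cells with a UMI, taken after thinning each cell to 3000 UMIs because depth differed, are given for 60 gene and class pairs. In 6 of these the share and the CPM differed in direction between the libraries, and no order is read from these shares: Col4a1 in pericyte-like cells (89.95% and 83.5%), Lamb1 in both endothelial classes and in Schwann-like cells, Lamc1 in smooth muscle-like cells and Hspg2 in Schwann-like cells (65.8% and 53.3%). Of the 60 pairs, 22 had exact binomial 95% intervals that did not overlap between the libraries. Of these 14 were higher and 8 lower in the No-Touch library, and 0 went against the CPM. The same count over all genes was not made, so these counts are not read as particular to the set. Where a class had many cells small differences also counted, as for Hspg2 in fibroblast-like cells (30.5% and 32.8%). Among smooth muscle-like cells Col4a1 had a UMI in 82.2% (76.9 to 86.7) of the conventional ones, against 63.0% (57.4 to 68.4) of the No-Touch ones, and in 95.7% and 96.5% before thinning. Neutrophil-like cells, with median depths of 2694.5 and 4425 UMIs against 13380 and 17529 in smooth muscle-like cells, had 10.8% and 14.9% at the same thinned depth, with 237 and 5 shallower cells left out. Col4a5 had a UMI in 16.6% and 33.4% of smooth muscle-like cells, and in 0% of thinned neutrophil-like cells of either library (0 of 139 and 0 of 74, which allows up to 2.62% and 4.86% by the exact interval). Nid1 had a UMI in 56.7% and 68.4% of fibroblast-like cells, against 8.63% and 20.3% of neutrophil-like cells. Thinning left out 61 and 96 fibroblast-like cells and 5 and 0 smooth muscle-like cells.

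**Figure D5:**
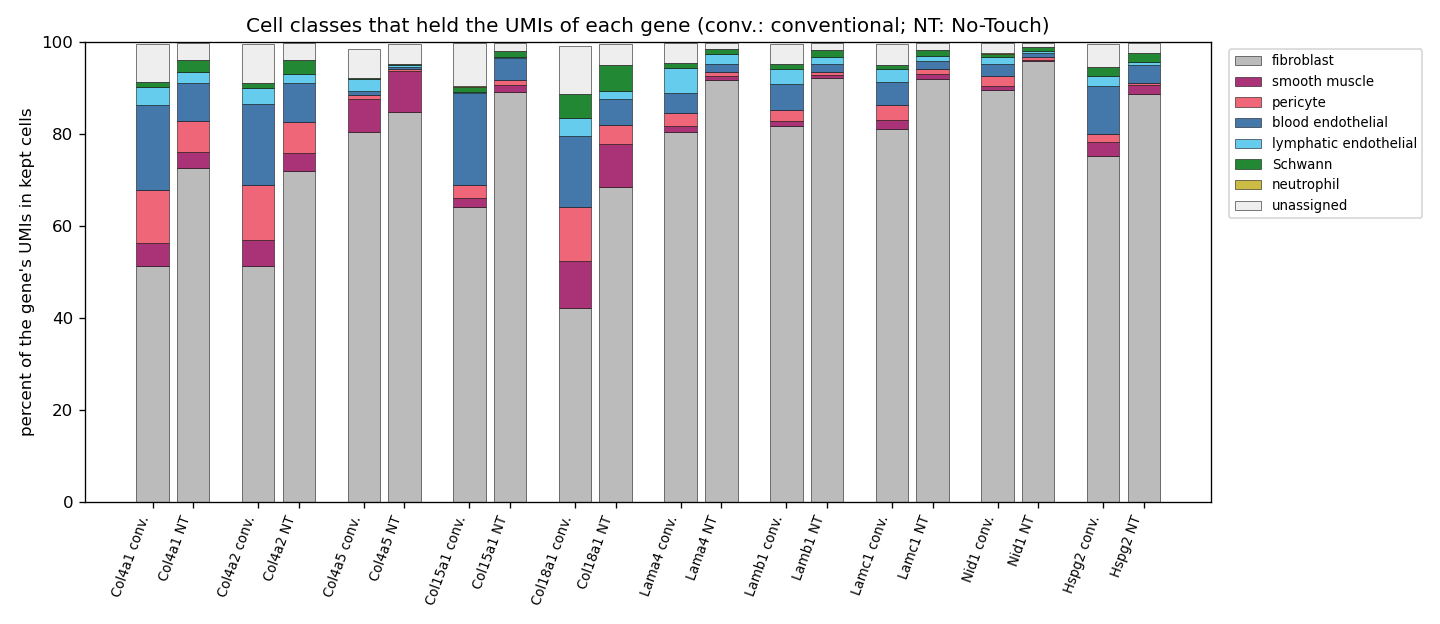
Percent of each gene's UMIs in kept cells by cell class, with 1 stacked bar for each gene and library (conv., conventional; NT, No-Touch); the part of a bar up to 100 not drawn is in the smaller classes. Fibroblast-like cells held 51.4% of Col4a1 and 89.6% of Nid1 UMIs in the conventional library, and 72.7% and 95.9% in the No-Touch library.

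Fibroblast-like cells held most of the basement membrane UMIs, 67.0% and 86.1% of those of the 10 genes. They made up 62.3% and 78.0% of kept cells and were the deepest of the 6 classes, with medians of 19864 and 31484 UMIs a cell. For Nid1 the shares were 89.6% and 95.9%, and for Col18a1 42.2% and 68.4%. Blood endothelial-like cells held 18.6% and 8.25% of the Col4a1 UMIs and 20.1% and 4.84% of the Col15a1 UMIs, and pericyte-like cells 11.5% and 6.74% of the Col4a1 UMIs. Digestion and sorting set how many cells of a class were captured, so these shares describe the libraries and not the tissue.

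Other basement membrane genes were listed by role, and a gene in a class was compared and called as above. Of 73 gene and class pairs from 27 further structural genes 14 were higher (19.2%) and 5 lower (6.85%) in the No-Touch library. Over all genes between 7.35% and 14.2% were higher and between 3.35% and 9.02% lower, depending on the class, and these ranges apply to the counts over all classes below. The smooth muscle-like class held 6 of the higher ones and 2 of the lower ones among 15 genes compared, against 14.2% and 9.02% of all genes there. Besides Col4a6, Smoc1, a calcium-binding protein of basement membranes, was at 91.9 and 244 CPM there, and Npnt, nephronectin, an integrin ligand, at 254 and 455 CPM. Sparc, a chaperone and binder of type IV collagen, was at 7471 and 3827 CPM in smooth muscle-like cells, the direction of Col4a1 there, and at 8267 and 9884 CPM in fibroblast-like cells, which was not called. Ntn4, a laminin-related netrin, was at 6.0 (68 UMIs) and 70.8 CPM in blood endothelial-like cells. Hmcn1, hemicentin-1, was at 28.5 and 52.9 CPM in fibroblast-like cells. In Schwann-like cells Nid2, the second nidogen, was at 71.6 and 125 CPM, Agrn, agrin, at 72.3 and 120.2 CPM and Egflam, pikachurin, at 32.4 and 62.7 CPM, all called higher.

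Of 19 genes for chain modification, folding and cross-linking, 11 of 111 pairs were higher (9.91%) and 6 lower (5.41%), both within the range of all genes. Loxl2, a lysyl oxidase that cross-links type IV collagen, was at 175 and 353 CPM in fibroblast-like cells and at 198 and 119 CPM in smooth muscle-like cells, called in opposite directions. Serpinh1, the collagen chaperone Hsp47, was at 1246 and 795 CPM in smooth muscle-like cells. Pxdn, the peroxidasin that forms sulfilimine cross-links in type IV collagen, was lower in smooth muscle-like (62.2 and 38.4 CPM) and Schwann-like cells (86.8 and 47.0 CPM). Of the 18 genes of this list compared in smooth muscle-like cells 3 were lower and 0 higher, against 9.02% and 14.2% of all genes, with a median log2 ratio of -0.43 beside 0.09 for all genes.

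Of 14 receptor genes, 9 of 64 pairs were higher (14.1%), within the range of all genes, and 10 lower (15.6%), above it. Sdc4, syndecan-4, a heparan sulfate co-receptor, was called lower in 5 of 6 classes, with 770.5 and 216 CPM in fibroblast-like and 1623 and 727 CPM in Schwann-like cells. Itga1, the alpha subunit of a collagen-binding integrin, was lower in smooth muscle-like cells (467 and 243 CPM) and higher in Schwann-like cells (368 and 598 CPM), which are the directions Col4a2 had in these classes. Bcam, a receptor for laminin alpha5, was at 60.0 and 109 CPM in blood endothelial-like cells.

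Of 15 genes of matrix breakdown and its inhibitors, 3 of 70 pairs were higher (4.29%), below the range of all genes, and 14 lower (20%), above it. Adamts4, a secreted protease best known for cleaving aggrecan and versican, was lower in 5 of 6 classes, all but the fibroblast-like one, with 536 and 137 CPM in smooth muscle-like, 1218 and 591 CPM in pericyte-like, 247 and 86.2 CPM in blood endothelial-like and 74.0 and 40.2 CPM in lymphatic endothelial-like cells. Timp3, a matrix-bound protease inhibitor, was at 1945 and 973 CPM in pericyte-like, 759.9 and 427 CPM in blood endothelial-like and 1523 and 957 CPM in Schwann-like cells, all called lower. Timp4 in smooth muscle-like cells (16.5 and 85.0 CPM), Mmp2, a gelatinase that degrades type IV collagen, in blood endothelial-like cells (92.0 and 186 CPM) and Timp2 in the same cells (232 and 403 CPM) were the 3 called higher.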

How the data were processed

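Single-cell RNA was measured in 2 libraries of CD45-negative cells, 1 of conventional and 1 of No-Touch vein grafts, grouped by their sample titles. The authors deposited raw UMI counts, 1 filtered matrix of genes by barcodes for each library. Per the submitters' processing notes they were made with Cell Ranger 3.1.0 on mm10, and per the file headers written by Cell Ranger 6.0.0, a difference that could not be settled. No source used here says whether counting used the strand. The 22 bases shared by Col4a1 and Col4a2 lie at their starts, whereas the 3' kits named in the labels count the other ends of molecules. Sharing of reads between these genes was not tested. The deposited counts sum to 200851272 UMIs in 11899 conventional barcodes and 373319906 UMIs in 12450 No-Touch barcodes.

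Barcodes were kept from 500 genes and 1000 UMIs upwards, with mitochondrial UMIs up to 10%. Scrublet in scanpy 1.11.5 scored doublets, and since its own threshold marked 2.30% and 0%, the highest scores were removed in both libraries at 0.8% per 1000 barcodes (875 and 1063 cells). The libraries shared 22 barcodes, which were also left out as an alternative. Kept UMIs summed to 175089693 and 322902564. A cell took the class with the highest mean marker score, if that reached 0.25 with at least 3 markers detected and led the next class by 0.1. This scoring was set after marker levels had been seen and before the basement membrane genes were looked at. Leiden clusters (resolution 1, 30 components, 15 neighbours, 2000 variable genes) were made without those genes. Cluster 11, led by the mesothelial marker Wt1 (179 gated cells), was set aside from the fibroblast-like class. The members and gene lists were chosen with earlier results of these data known.

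UMIs were summed per class, where both libraries had 50 cells or more, and compared as CPM + 1. Exact 95% intervals are Garwood's for levels, Clopper-Pearson's for shares and conditional binomial ones for ratios (scipy 1.17.1), the last on CPM without the added 1, and cover counting error only. No p-value was computed. The code for the calls was run on simulated counts with 200 changed genes and counting error only. That run checks the code and says nothing of the spread between libraries. All 10 genes are described in every class. From each other list up to 4 genes per class with the largest log2 ratios and at least 50 CPM could be named, together with the 8 genes outside the lists most correlated with Col4a1, and some of these genes are not reported here. Alternatives covered scaling, pseudocount, filters, doublets, gates, thinning and weighting of cells.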

Additional observations from a re-analysis of the deposited data

Results flagged for a closer look

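Of the set, 2 genes had called differences of opposite sign in different cell classes, and these differences between classes were not tested, since each rests on 1 library per group. For Col4a2, the log2 ratio of No-Touch over conventional levels was 0.61 in Schwann-like cells and -0.93 in smooth muscle-like cells, a gap of 1.54. For Col4a5, it was 1.26 in smooth muscle-like cells and -0.65 in lymphatic endothelial-like cells, a gap of 1.91, where the lymphatic values rest on 94 and 56 UMIs. In the Schwann-like class the Col4a2 ratio was 0.51 within cluster 19, under the limit of 1.5 times.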

How the results depend on the processing

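Of 60 gene and class values 15 were called, and all 15 kept their sign under 14 alternatives, 6 of them staying at least 1.5 times apart in every one. These 6 were Col18a1 in fibroblast-like cells, Col4a1, Col4a2 and Col4a5 in smooth muscle-like cells, and Lamc1 and Nid1 in Schwann-like cells. Equal weights for the fibroblast-like clusters were not among the 14, and gave Col18a1 a log2 ratio of 0.38, under the limit. Of the alternatives, those that put back cluster 11, checked leading genes over clusters, left out shared barcodes or joined the mural cells were chosen after seeing the data.

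In fibroblast-like cells 2 genes in place of 1 were higher with a mitochondrial limit of 5%, with doublets kept, with the stricter gate, with thinning and with the mean over cells, and 4 were higher with cluster 13 also set aside. Col4a5, at 0.57 in the whole class, was then at -0.17. By the mean over cells 1 was lower in place of 0. The fibroblast-like median of 0.37 was 0.34 with TMM and with median-of-ratios scaling, 0.33 with a pseudocount of 10, 0.24 with a filter of 50 CPM, 0.31 with thinning and 0.32 by the mean over cells. In smooth muscle-like cells 2 in place of 1 were higher with the stricter gate. In pericyte-like cells 1 in place of 4 was higher with TMM, with median-of-ratios scaling and with classes from clusters, and 2 with a pseudocount of 10, and the median of 0.38 was 0.21 with classes from clusters. In blood endothelial-like cells 1 in place of 0 was higher with no filter, and 2 with TMM, 3 with median-of-ratios scaling and 0 by the mean over cells were lower in place of 1. The median there was 0.02 with thinning and 0.07 by the mean over cells in place of -0.19. In lymphatic endothelial-like cells 1 in place of 2 was lower with a pseudocount of 10, with the filter of 50 CPM and with the stricter gate, and 0 with doublets kept. The cause of these moves was not tested. Scaling moved the median of all genes from 0.070 to -0.040 (TMM) and -0.076 (median of ratios) in blood endothelial-like cells, and from 0.089 to -0.013 and -0.026 in smooth muscle-like cells. Thinning to 2000 UMIs and classes from clusters left the shares and the order of classes within the limits set for a change.

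No paired analysis was possible because each group has 1 library; for the same reason leaving out a replicate was not run. Depth and free RNA limit some values, where levels lay below those of neutrophil-like cells or had intervals that overlapped theirs. For Col4a5 these were pericyte-like, blood endothelial-like, Schwann-like and No-Touch lymphatic endothelial-like cells. For Lamb1 and Nid1 they were No-Touch smooth muscle-like cells, for Hspg2 No-Touch pericyte-like cells and for Col15a1 lymphatic endothelial-like cells.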
